A study of Mus musculus with 12 samples.

Results

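The 10 genes described here, Islr, Bgn, Mxra8, Mrc2, Dcn, Lum, Pdgfra, Fbln1, Mmp2 and Sparc, encode matrix proteins, a matrix-cleaving enzyme and surface receptors of fibroblasts that are not collagens. They were found by gene symbol among the 22609 genes of each count file, and all 10 were present and passed the filter on low counts. The files hold RNA-seq read counts of sensory neuron fractions of mouse dorsal root ganglia (DRG, which innervate trunk and limbs) and trigeminal ganglia (TG, which innervate head and face). There were 12 libraries in 4 groups of 3, with each sex represented in each ganglion. All groups were wild type (Wt in the sample titles). They shared the strain (C57BL in the labels, C57BL/6J in the methods of the study) and the naive state. They also shared an age of 3 to 4 months in the labels, whereas the methods give a younger range. The females were in estrus. The lumbar DRG or the TG were digested with enzymes, spread on a Percoll density gradient, and the denser, neuron-rich layer was kept, so each library is a bulk sample of neurons with the other cells that settle with them. How many mice went into a library, and whether TG and DRG libraries of 1 sex came from the same mice, is not given in the sources used here. The p-values therefore measure the spread between these libraries.

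In peripheral ganglia, fibroblasts lie in the capsule, along the nerve bundles and around vessels, and they lay down collagen fibrils together with the proteins that space, cross-link and cut them. Small leucine-rich proteoglycans (Dcn, Lum, Bgn) bind collagen and set fibril width, Sparc and Fbln1 are secreted glycoproteins of the matrix and basement membrane, and Mmp2 is a secreted protease that cleaves denatured and type IV collagen. At the cell surface, Pdgfra binds platelet-derived growth factor and marks fibroblasts in many tissues, Mrc2 takes up collagen fragments, Mxra8 is a matrix-associated membrane protein, and Islr is a leucine-rich repeat protein of stromal cells. Sparc is also made by endothelial cells and glia.

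Per kilobase of exon, the proteoglycan Dcn had the highest level of the 10 genes, with 319 ± 91.4 RPKM over the 12 libraries (RPKM, TMM-scaled CPM per kilobase of exon, where CPM gives a gene's share of all reads in genes on one common scale; SD). Sparc followed with 207 ± 61.1 RPKM and Lum with 87.4 ± 18.1 RPKM. The order continued with Bgn at 24.4 ± 12.3, Mmp2 at 17.3 ± 13.0, Islr at 14.9 ± 8.24, Mxra8 at 13.0 ± 6.22 and Pdgfra at 10.8 ± 3.25 RPKM. Mrc2, at 1.98 ± 1.30 RPKM, and Fbln1, at 0.878 ± 0.676 RPKM, were the lowest. The 3 highest genes kept their order in 12 of 12 libraries, and Pdgfra lay above Mrc2 in 12 of 12. Neighbours between Mmp2 and Pdgfra were not separated, since Mmp2 lay above Islr in 6 of 12 libraries, Islr above Mxra8 in 7 and Mxra8 above Pdgfra in 7. Bgn lay above Mmp2 in 11 of 12 libraries and Mrc2 above Fbln1 in 9 of 12. Fbln1 rested on few reads, with 0 counts in female DRG 1 and at most 122 counts in any library, and 3 counts in female DRG 1 would have been 0.356 CPM.

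**Figure D1:**
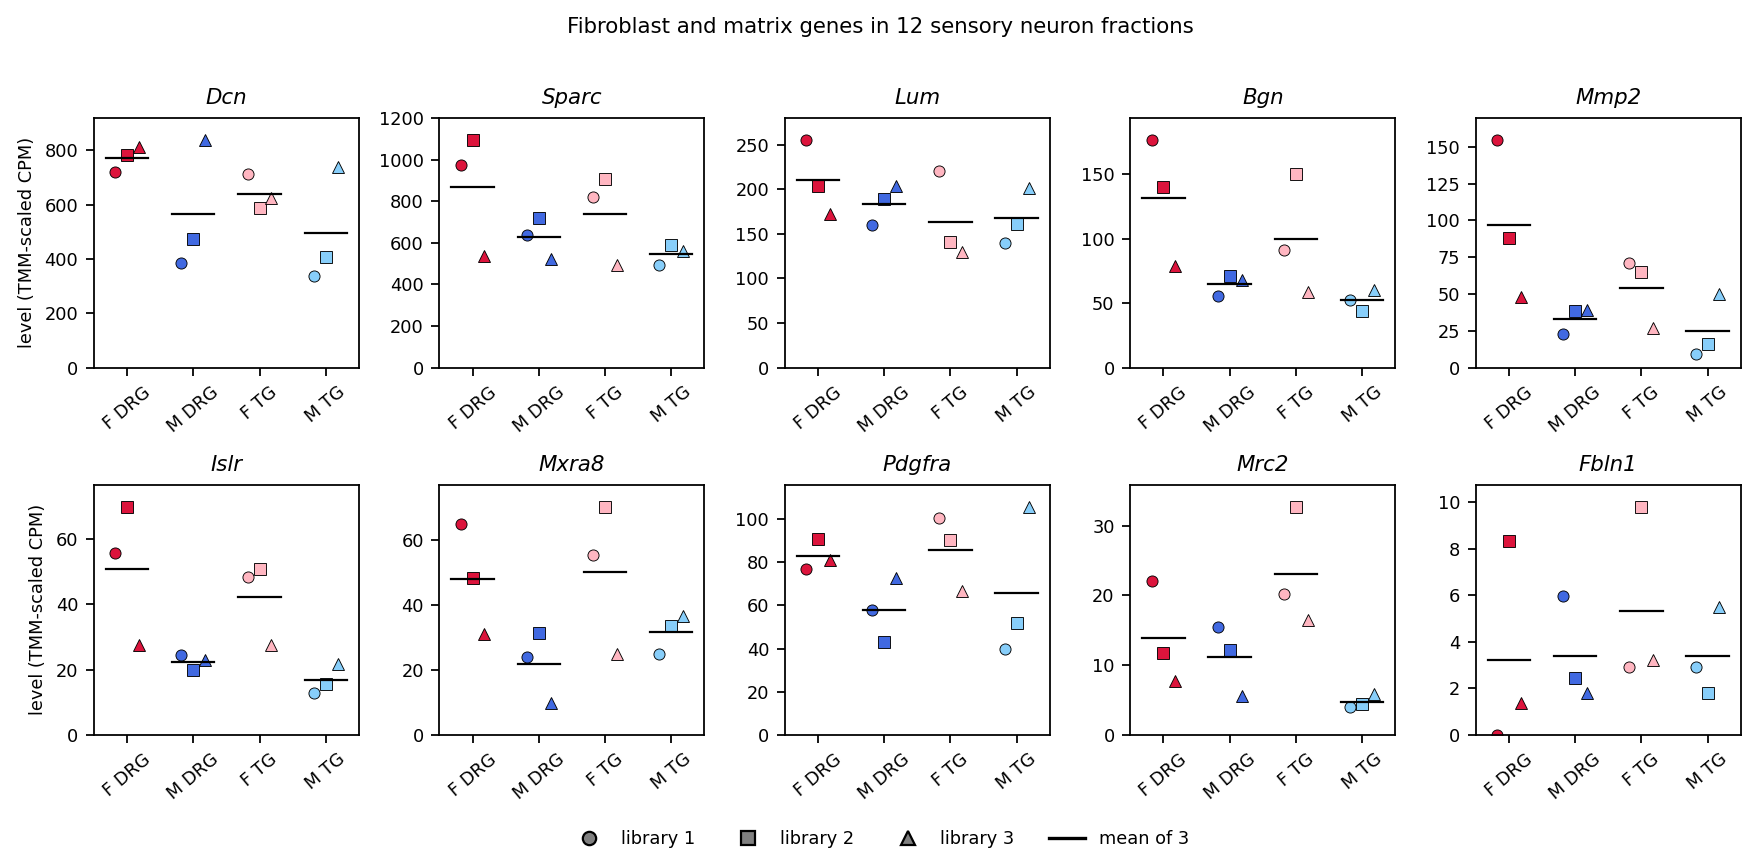
Level of each gene in the 12 libraries (vertical axis, TMM-scaled CPM, linear and starting at 0) in female (F) and male (M) DRG and TG. Points are libraries, shaped by replicate number, and bars are means of 3. In Mrc2 the 3 male TG libraries lie between 4.01 and 5.89 CPM, below all 3 female TG libraries, while the Lum values of the sexes overlap in both ganglia.

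The genes differ in the base composition of their exons. The comparisons of the sexes and of the ganglia are therefore also given after a correction for it and for exon length. Exon GC content was 42.0% in Lum and 43.1% in Dcn, 47.6% in Pdgfra, 50.7% in Sparc and 51.1% in Bgn, and rose through Fbln1 (55.0%), Mmp2 (55.2%), Mxra8 (55.7%) and Islr (56.4%) to Mrc2 (57.6%). The median of the 14586 tested genes with an annotation was 49.8%. To show this contrast, 120 coding bases of each of 4 genes at the ends of this range are printed below in the direction of the transcript (genome build mm9, GENCODE exons), with G and C in capitals. Within the longest coding exon of each gene, they are the stretches whose GC content is nearest to that of all its exons. Among equal stretches the first in genome order was taken.
Lum, chr10:97031100-97031219, plus strand, 50 of 120 bases G or C: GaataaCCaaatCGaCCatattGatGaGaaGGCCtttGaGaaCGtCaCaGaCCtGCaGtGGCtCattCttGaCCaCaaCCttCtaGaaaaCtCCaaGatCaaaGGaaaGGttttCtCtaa
Dcn, chr10:96969132-96969251, plus strand, 52 of 120 bases G or C: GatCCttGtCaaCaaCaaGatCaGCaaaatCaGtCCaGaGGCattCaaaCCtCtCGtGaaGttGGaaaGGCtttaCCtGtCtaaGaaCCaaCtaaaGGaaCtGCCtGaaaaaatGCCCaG
Islr, chr9:58004746-58004865, minus strand, 68 of 120 bases G or C: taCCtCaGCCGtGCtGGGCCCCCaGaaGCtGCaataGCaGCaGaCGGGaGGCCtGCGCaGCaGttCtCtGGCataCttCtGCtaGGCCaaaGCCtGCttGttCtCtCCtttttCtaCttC
Mrc2, chr11:105186928-105187047, plus strand, 69 of 120 bases G or C: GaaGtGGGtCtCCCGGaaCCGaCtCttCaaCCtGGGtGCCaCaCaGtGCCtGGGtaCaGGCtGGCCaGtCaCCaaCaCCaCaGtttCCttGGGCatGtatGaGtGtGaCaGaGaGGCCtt
Lum and Dcn lie close together on chromosome 10, and the other 8 genes lie on chromosome 4 (Mxra8), 5 (Pdgfra), 8 (Mmp2), 9 (Islr), 11 (Mrc2 and Sparc), 15 (Fbln1) and X (Bgn).

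The first comparison asked which of these genes differ between the sexes in TG. All 10 had a female over male log2 fold change above 0, against 52.9% of all 14004 genes tested, although that of Lum was 0.01. Mrc2 and Islr met the criteria of the study (fold above 2, unadjusted p under 0.05 and mean CPM above 1 in the higher sex), 2 of 10 genes where 5.14% of all genes met them higher in females. Mrc2, Islr and Bgn had an unadjusted p under 0.05, against 10.9% of all genes higher in females. By edgeR's adjusted p, 0 of the 10 genes and 0% of all genes passed 0.05, and the adjusted p of the 10 genes ran from 0.154 to 0.989. DESeq2 called Mrc2 and Islr at an adjusted p under 0.05. It called 6.27% in either direction of the 11488 genes to which it gave an adjusted p. The median log2 fold change of the 10 genes was 0.71, against 0.05 over all genes.

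Mrc2, the collagen uptake receptor, had 20.2, 32.6 and 16.5 CPM in female TG 1 to 3 and 4.01, 4.36 and 5.89 CPM in male TG 1 to 3. All female TG libraries lay above all male ones. Its log2 fold change was 2.34 (SE 0.38, unadjusted p 7.7e-05, edgeR adjusted p 0.154). Islr, which marks stromal cells, had 48.5, 50.7 and 27.4 CPM in the female and 12.8, 15.5 and 21.7 CPM in the male TG libraries. The sexes did not overlap in Islr either, with female TG 3 the lowest female and male TG 3 the highest male library. Its log2 fold change was 1.39 (SE 0.33, unadjusted p 0.00147, adjusted p 0.154). Of the 10 genes, 2 thus showed non-overlap with females higher, against 11.3% in the whole table.

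The other genes overlapped between the sexes in TG. Bgn, a proteoglycan of soft tissue and bone, had 91.0, 150.0 and 58.6 CPM in females and 52.8, 43.6 and 59.9 CPM in males, and the log2 fold change was 0.99 (SE 0.34, unadjusted p 0.0131). Mmp2 had 71.1, 65.1 and 27.0 CPM in females and 9.38, 16.1 and 49.8 CPM in males, which gives 1.17 on the log2 fold scale (SE 0.56, unadjusted p 0.0600). In Mmp2 and Bgn, female TG 3 lay below male TG 3 and female TG 1 and 2 lay above all males. Mxra8 had 55.5, 70.1 and 24.8 CPM in females and 24.9, 33.4 and 36.5 CPM in males, and its log2 fold change was 0.72 (SE 0.36, unadjusted p 0.0728). In Mxra8 female TG 3 was the lowest of the 6 libraries. The abundant proteoglycans Dcn and Lum had log2 fold changes of 0.42 (SE 0.29) and 0.01 (SE 0.26), and Pdgfra, Sparc and Fbln1 had 0.44 (SE 0.35), 0.48 (SE 0.26) and 0.70 (SE 0.72). Dcn had 711, 589 and 623 CPM in females and 337, 409 and 740.3 CPM in males, so male TG 3 lay above all females. Lum had 220.2, 140.5 and 129 CPM in females and 139.5, 162 and 202 CPM in males, with no order between the sexes. Pdgfra had 101, 90.3 and 66.8 CPM in females and 39.6, 51.8 and 105 CPM in males. Sparc had 819, 905 and 492 CPM in females and 495, 589 and 561 CPM in males, and as in Mxra8 female TG 3 was the lowest of the 6 libraries. Fbln1 had 2.93 to 9.78 CPM in females and 1.80 to 5.49 CPM in males. For Pdgfra, as for Dcn, male TG 3 was the highest library. Without female TG 3, 5 of the 10 had an edgeR adjusted p under 0.05 (Islr, Bgn, Mxra8, Mrc2 and Sparc) and 4 met the criteria, and without male TG 3 0 passed the adjusted p and 4 met the criteria. With the libraries numbered 1 and 2 alone, 8 passed the adjusted p and 7 met the criteria. Counts over the whole table moved too. Over all genes, 23.6% passed the adjusted p and 9.04% met the criteria higher in females without female TG 3, 0% and 7.04% did without male TG 3, and 44.1% and 13.1% did with the libraries numbered 1 and 2 alone.

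In DRG, 9 of the 10 genes had a log2 fold change above 0, against 51.4% of the 13958 genes tested, and that of the lowly counted Fbln1 was -0.06 (SE 1.40). Mmp2, Islr, Mxra8 and Bgn met the criteria of the study, 4 of 10 genes where 2.01% of all genes met them higher in females. The same 4 genes had an unadjusted p under 0.05, against 3.84% of all genes higher in females. By edgeR's adjusted p, 0 of the 10 genes and 0% of all genes passed 0.05 (adjusted p 0.307 to 0.994). DESeq2 called Mmp2 alone of the 10, and 4.66% of the 6604 genes to which it gave an adjusted p. The median log2 fold change of the 10 genes was 0.50, against 0.02 over all genes. The study had picked Islr, Bgn and Mxra8 for RT-PCR from these libraries together with those of back-labelled DRG neurons. Their direction in the present libraries is therefore not independent evidence. By RT-PCR on separately isolated TG fractions and back-labelled DRG neurons, the study reports higher expression of these genes in females.

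Mmp2, the protease, had 154, 88.2 and 47.9 CPM in female DRG 1 to 3 and 22.6, 38.2 and 39.2 CPM in male DRG 1 to 3. Its log2 fold change was 1.55 (SE 0.42, unadjusted p 0.00276, adjusted p 0.307). Islr had 55.8, 69.8 and 27.4 CPM in female and 24.4, 19.8 and 23.0 CPM in male DRG, a log2 fold change of 1.19 (SE 0.37, unadjusted p 0.00731). In Mmp2 and Islr no male DRG library reached the lowest female one, which was female DRG 3. Bgn had 176, 139.9 and 78.4 CPM in female and 55.6, 71.1 and 68.0 CPM in male DRG, a log2 fold change of 1.03 (SE 0.33, unadjusted p 0.0081). Bgn also did not overlap between the sexes. Mxra8 had 64.9, 48.4 and 31.0 CPM in female and 23.9, 31.3 and 9.92 CPM in male DRG, a log2 fold change of 1.18 (SE 0.43, unadjusted p 0.0173). Here female DRG 3 lay just under male DRG 2. Counting Pdgfra, 4 genes did not overlap with females higher, against 7.82% of all genes. Pdgfra, the growth factor receptor, had 76.9 to 91.0 CPM in female and 42.8 to 72.7 CPM in male DRG, a log2 fold change of 0.52 (SE 0.30, unadjusted p 0.104).

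The remaining DRG values were smaller than their spread allowed to be called. Mrc2 had 22.1, 11.7 and 7.71 CPM in female and 15.5, 12.2 and 5.59 CPM in male DRG, a log2 fold change of 0.34 (SE 0.54, unadjusted p 0.538). Its highest value was in female DRG 1, and without that library the log2 fold change was -0.18. Dcn had 719, 784 and 812 CPM in female and 386, 475 and 837 CPM in male DRG, a log2 fold change of 0.44 (SE 0.31). As in TG, the male library numbered 3 was above all females in Dcn and the other males were below them. Sparc had 975, 1092 and 539 CPM in female and 638, 719 and 520.1 CPM in male DRG, and Lum had 255, 204 and 173 CPM in female and 159.5, 189 and 203 CPM in male DRG. Their log2 fold changes were 0.49 (SE 0.30) and 0.20 (SE 0.27), and in both genes female DRG 3 lay among the males. Without female DRG 1 or without female DRG 2 the number of genes meeting the criteria fell from 4 to 2, and the share of all genes meeting them higher in females from 2.01% to 1.21% and 1.5%.

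**Figure D2:**
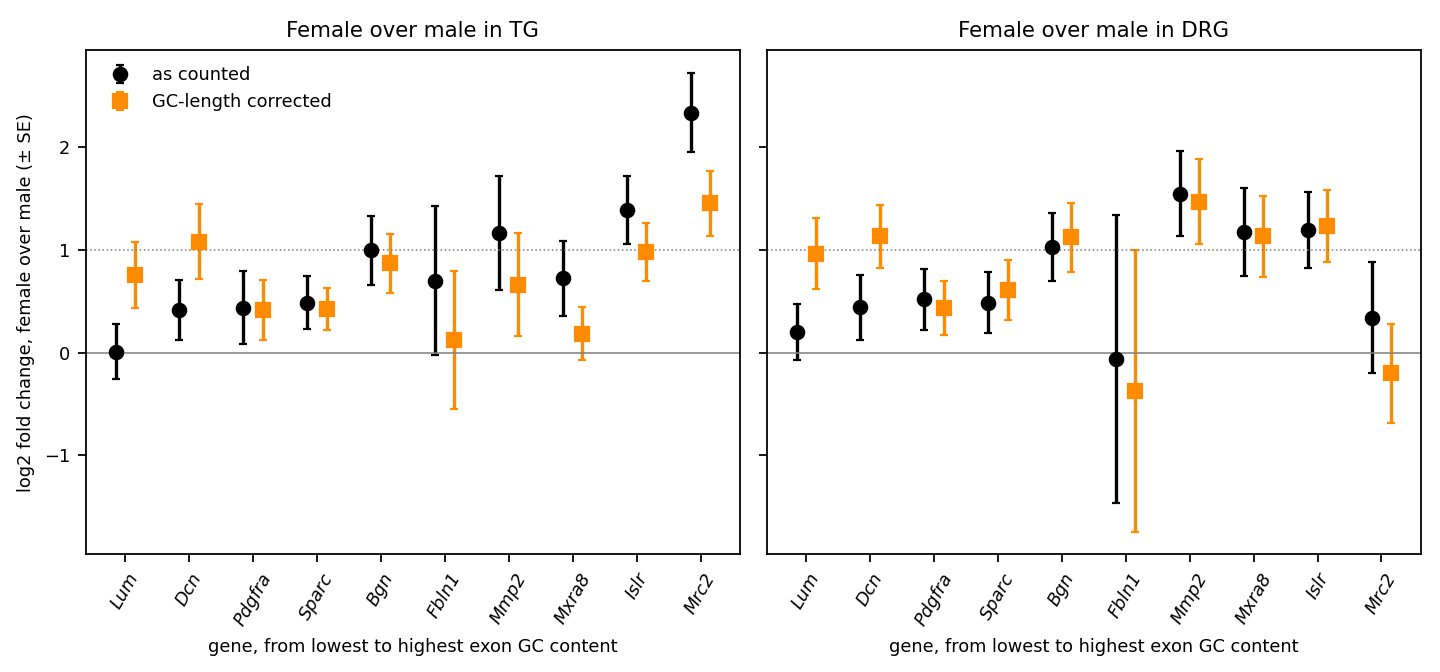
Female over male log2 fold change of each gene with its SE (vertical axis) in TG and DRG, for counts as deposited (black) and after the GC-length correction (orange), with genes in order of exon GC content. The dotted line marks a fold of 2. In both ganglia the corrected values of Lum and Dcn lie above the uncorrected ones, and Mrc2 in TG comes down from 2.34 to 1.45.

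The sex effect on Mrc2 was 2.34 in TG and 0.34 in DRG on the log2 scale, and the difference of the sex effects in a model of all 12 libraries was 1.96 (SE 0.68, unadjusted p 0.0100, edgeR adjusted p 0.9998). Of the 10 genes, Mrc2 alone had an unadjusted p under 0.05 for this difference, against 1.97% of all genes, and 0 genes of the whole table passed an adjusted p of 0.05. For the other 9 genes the difference lay between -0.49 (Mxra8) and 0.71 (Fbln1). A different sex effect in the 2 ganglia was therefore not shown for any of the 10 genes.

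Between the ganglia themselves, with both sexes in 1 model, the log2 fold change of TG over DRG lay between -0.62 (Mmp2, SE 0.37) and 0.35 (Fbln1, SE 0.80), and 3 of the 10 were above 0, against 49% of all genes. Called by edgeR, with a fold above 2 and an adjusted p under 0.05, were 0 of the 10 genes and 0.769% of all genes. An unadjusted p under 0.05 was reached by 0 of the 10 genes and 8.83% of all genes, and the adjusted p of the 10 ran from 0.718 to 0.992. Mmp2 had 9.38 to 71.1 CPM in the 6 TG libraries (median 38.4) and 22.6 to 154 CPM in the 6 DRG libraries (median 43.6). For Sparc, TG over DRG was -0.22 (SE 0.20), and for Dcn it was -0.23 (SE 0.22). After a correction for GC content and exon length, which is described with the sex differences, Mmp2 had -0.82 (SE 0.35, unadjusted p 0.0311) and Bgn -0.50 (SE 0.23, unadjusted p 0.0446), so that 2 of the 10 genes had an unadjusted p under 0.05, both lower in TG, where 9.92% of all genes had one. Their edgeR adjusted p were 0.419 and 0.487, and 0 of the 10 passed 0.05.

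The order of the sex differences in TG ran with the GC content of the exons. Across the 10 genes, which are not independent replicates, Spearman's rank correlation of the female over male log2 fold change with exon GC content was 0.939 for TG and 0.382 for DRG. The same trend ran through the whole table in TG, where the median log2 fold change rose from -0.39 in the lowest of 5 equal GC bins of genes to 0.70 in the highest. In DRG these medians rose from -0.12 to 0.26. The share of genes meeting the criteria higher in females was 0.145% in the lowest and 17.9% in the highest bin in TG, and 0.617% and 4.46% in DRG. Dcn and Lum belong to the lowest bin and Islr, Mrc2 and Mxra8 to the highest.

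**Figure D3:**
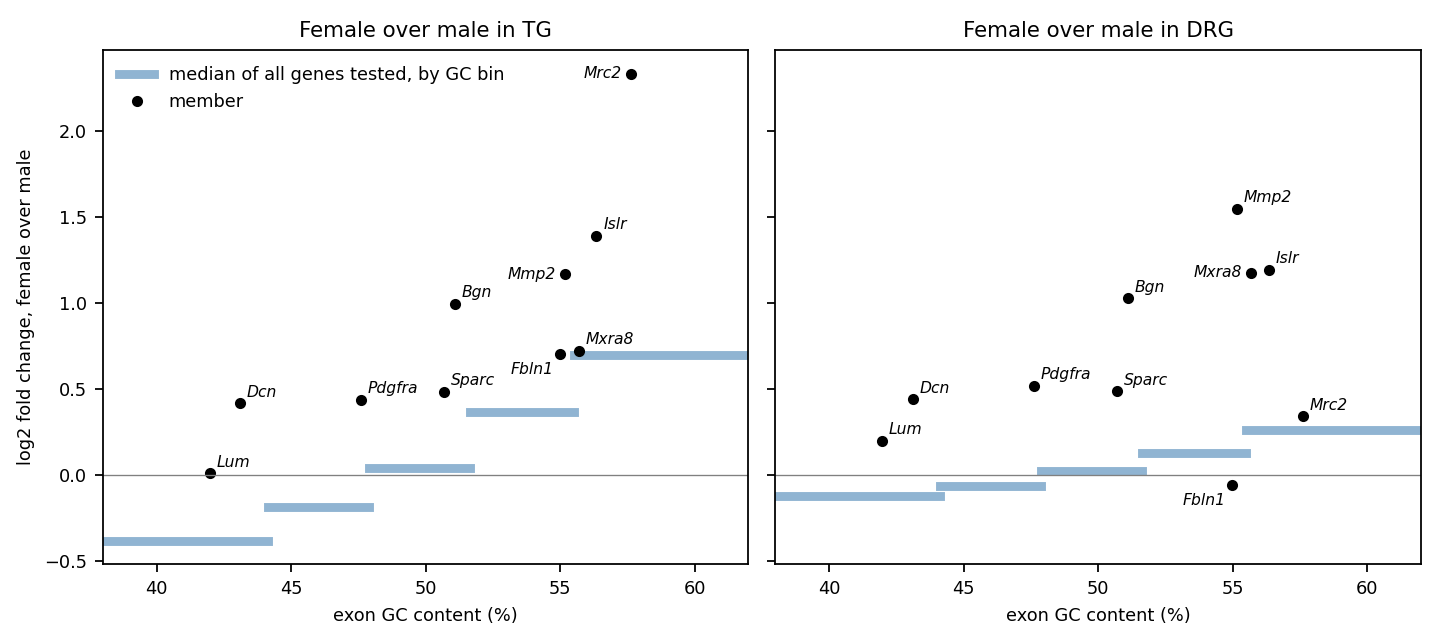
Female over male log2 fold change (vertical axis) against exon GC content in percent (horizontal axis) for the 10 genes (points) and for all genes tested (bars, medians of 5 GC bins, drawn over the GC range of the bin, the outer ones cut at the axis limits). In TG, Lum at 0.01 lies above the median of -0.39 of its bin, and Mxra8 at 0.72 lies near the median of 0.70 of its own.

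After correction for GC content and exon length, the differences of the abundant proteoglycans Dcn and Lum were larger and those of the GC-rich Mrc2 and Mxra8 in TG were smaller. Dcn (1937 exon bases, length percentile 17.9) and Lum (2075 exon bases, length percentile 20.1) are short as well as poor in GC. The parts of GC content and of exon length in these shifts were not separated. The correction, which takes out a smooth curve of level against exon GC content and exon length in each library, brought the bins to medians between -0.00 and 0.06 in TG and between 0.05 and 0.09 in DRG. After it, the log2 fold change of Dcn was 1.08 (SE 0.36, unadjusted p 0.0133) in TG and 1.13 (SE 0.30, unadjusted p 0.00253) in DRG. Lum had 0.76 (SE 0.32, unadjusted p 0.0387) and 0.96 (SE 0.35, unadjusted p 0.0155). These 2 genes, not called as counted in either ganglion, thus had an unadjusted p under 0.05 in both. Mrc2 in TG kept 1.45 (SE 0.31, unadjusted p 0.000801) and was -0.20 (SE 0.49) in DRG. Islr had 0.98 (SE 0.28) in TG, just under a fold of 2, and 1.23 (SE 0.35) in DRG. Mxra8 in TG fell from 0.72 to 0.19 (SE 0.26), while in DRG it had 1.13 (SE 0.40). Mmp2 had 0.66 (SE 0.50) and 1.47 (SE 0.41), and Bgn had 0.87 (SE 0.28) and 1.12 (SE 0.33), in TG and DRG. In all, 5 of the 10 in TG and 6 in DRG had an unadjusted p under 0.05 after the correction, each of them higher in females, against 4.64% and 3.75% of all genes higher in females. The criteria of the study were met by 2 genes in TG (background 1.39% higher in females) and 5 in DRG (2.2%). The corrected median of the 10 genes was 0.71 in TG and 1.04 in DRG, against 0.03 and 0.07 over all genes. None of the 10 passed an adjusted p of 0.05 in edgeR after the correction either, with adjusted p of at least 0.494 in TG and 0.459 in DRG.

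Depth and other properties of the libraries varied along with these values. Reads in genes numbered 7511765 to 15396090 per library, and the labels' sexes matched Xist and 4 Y-linked genes in all 12. The trend of level on GC content, in log2 CPM per 10 percentage points of GC, was 0.57 and 0.68 in female TG 1 and 2 and 0.38 and 0.17 in female DRG 1 and 2. In the other 8 libraries it lay between -0.46 and -0.02, female TG 3 (-0.09) and female DRG 3 (-0.30) among them. The trend on exon length, in log2 CPM per doubling of length, was 0.18, 0.09 and 0.02 in female DRG 1 to 3. In male DRG 1 to 3 it was -0.17, -0.24 and -0.06. For TG 1 to 3 the length trend was 0.15, 0.19 and 0.07 in females and -0.17, -0.16 and 0.09 in males. Reads that the counting step assigned to no gene, called reads outside genes here, made up 43.5% to 50.4% in females. In males they made up 37.6% to 47.9%, where male TG 3 was the highest. Whether these reads lay in introns, on the other strand or between genes is not given in the sources used here. Scaling by library totals in place of TMM factors shifted the all-gene median log2 fold change to 0.17 in TG (0.05 with TMM) and 0.19 in DRG (0.02 with TMM), and that of the 10 genes to 0.83 and 0.69. With that scaling 86.6% of all genes meeting the criteria in TG and 78.3% in DRG were higher in females, against 69.7% and 40.6% with TMM.

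**Figure D4:**
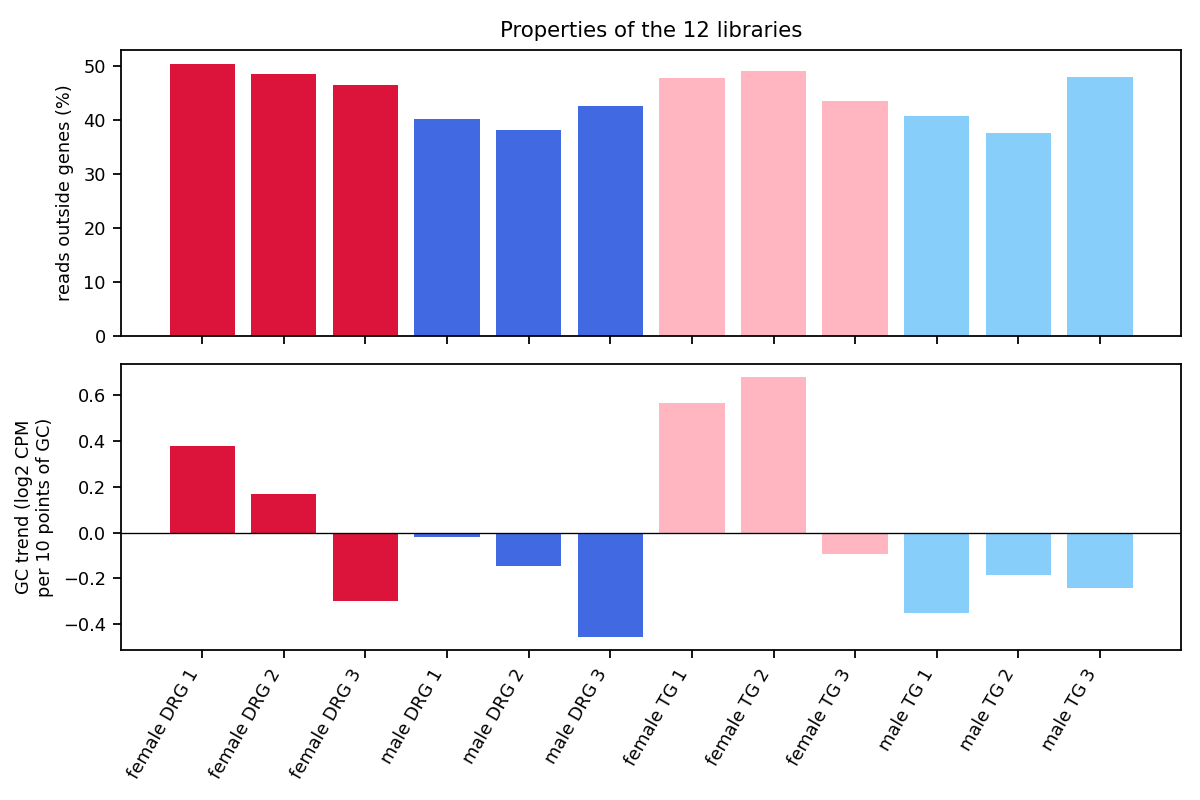
Reads assigned to no gene (reads outside genes) as a percent of these and the reads in genes (upper bars) and trend of level on exon GC content in log2 CPM per 10 percentage points (lower bars, 0 marked) in each library. Female DRG 1 and 2 and female TG 1 and 2 are the libraries above 0 in the lower panel, and male TG 3 at 47.9% stands with the females in the upper one.

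The levels of 4 of the 10 genes, Pdgfra, Mmp2, Bgn and Islr, followed the percent of reads outside genes over the 12 libraries. They passed a permutation p of 0.05 adjusted over all 14797 genes, as did 4.85% of all genes by Pearson's r above 0 and 3.82% by rank. Pdgfra had r 0.855 (permutation p 0.00058, adjusted p 0.0143) and a rank correlation of 0.776 (permutation p 0.00412, adjusted p 0.0416). Mmp2 had r 0.821 (permutation p 0.00078, adjusted p 0.0163) and a rank correlation of 0.881 (permutation p 3e-04, adjusted p 0.0140). Without the 2 libraries farthest from the median of that percent, r was 0.792 for Pdgfra and 0.899 for Mmp2. Islr (r 0.813) and Bgn (r 0.800) had adjusted permutation p of 0.0246 and 0.0218, with rank correlations of 0.804 and 0.818 (adjusted permutation p 0.0318 and 0.0260). Unadjusted, 6 genes had a permutation p under 0.05 by r, where 13.2% of all genes had one with r above 0, and 5 by rank (13.5% of all genes). Mxra8 had one on both scales (r 0.613, rank correlation 0.685, adjusted permutation p 0.111 and 0.0874), and Dcn by r alone (r 0.726, rank correlation 0.524, adjusted permutation p 0.0577 and 0.222). Within each ganglion r was 0.866 to 0.877 in DRG and 0.807 to 0.897 in TG for the 4 genes. Within a sex it was 0.535 to 0.958 among the 6 female libraries, lowest for Pdgfra. Among the 6 males it was 0.278 for Bgn, 0.353 for Islr, 0.510 for Mmp2 and 0.855 for Pdgfra. The permutations moved libraries freely between the sexes, and the percent was mostly higher in females. These p-values are therefore not separate from the sex difference. The part of the GC and length trends and of reads outside genes in the sex differences was not tested beyond the correction above.

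Most pairs of the 10 genes were positively correlated across libraries, apart from the pairs with the lowly counted Fbln1. Over the 45 pairs the median Pearson's r of log2 CPM was 0.534 (range -0.502 to 0.900), 38 of 45 were above 0, and 15 passed a permutation p adjusted over the 45 pairs. Over all 109468206 pairs of the 14797 genes the median r was 0.01 and 50.8% were above 0, and 4.89% had an r of at least 0.671, the lowest among the 15. By Spearman's rank correlation 7 pairs passed, all of them among the 15. TG and DRG libraries may share mice, in which case 12 is too high a number of independent samples. The closest pair was Islr and Bgn (r 0.900, permutation p 0.0001, adjusted p 0.00345; rank correlation 0.818, permutation p 0.00177), with r 0.846 without the 2 libraries farthest from the median of Islr, 0.911 within DRG and 0.883 within TG. In each pair these 2 libraries were chosen by the gene that comes first in the opening list, and not by the other gene. Mmp2 went with both, at r 0.870 for Bgn and 0.876 for Islr (adjusted permutation p 0.00345 for each; rank correlation 0.923 and 0.825). Islr, Bgn, Mmp2 and Sparc formed 6 pairs that all passed by r, but the 3 pairs with Sparc did not pass by rank (adjusted permutation p 0.0928 with Islr and 0.0531 with Bgn and Mmp2). Nor did they without the 2 libraries farthest from the median of Islr, Bgn and Mmp2, respectively (0.0951, 0.0508 and 0.127). Dcn with Pdgfra also passed by r only (r 0.818, adjusted permutation p 0.0130; rank correlation 0.664, adjusted permutation p 0.0760). Of the 9 pairs with Fbln1 0 passed, and its r ran from -0.502 with Lum to 0.133 with Pdgfra. Most of these low values rested on female DRG 1, where Fbln1 had 0 counts. Without that library, left out after the data had been seen, 7 of the 9 were above 0, with a median of 0.538 and a highest value of 0.633 with Sparc. Within TG 8 of the 9 were above 0 (median 0.579), and within DRG, where that library is 1 of 6, 0 were (median -0.323). Without Fbln1 the median of the 36 pairs was 0.619 and the lowest 0.093, between Mrc2 and Lum.

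Much of the relation remained after the group means were taken out, though not for every pair with Dcn. Deviations from the 4 group means had a median r of 0.472, and 38 of 45 were above 0. The deviations were not set against all pairs of genes. Dcn with Bgn went from 0.525 to 0.0876, and Dcn became negative with Mrc2 (-0.364), Mxra8 (-0.307) and Sparc (-0.154). Within DRG the median was 0.505 and within TG 0.616 (6 libraries of both sexes each, 0 pairs past an adjusted permutation p of 0.05). On log2 CPM after the GC-length correction, an alternative added after the data had been seen, the median was 0.574 and 20 pairs passed, 12 of them among the 15, with r of at least 0.670, which 3.42% of all pairs of genes reached. On this scale r was higher for Dcn and Lum with each other and with Islr. Dcn and Islr went from r 0.613 (adjusted permutation p 0.0788) to 0.915 (0.0009), Dcn and Lum from 0.558 (0.125) to 0.852 (0.00252), and Islr and Lum from 0.442 (0.242) to 0.838 (0.00252). Dcn and Lum are alike in GC content and exon length, so the correction took nearly the same values from both in each library. The part of the correction itself in these rises was not tested. For Mrc2, r to Islr went from 0.759 (adjusted permutation p 0.0226) to 0.441 (0.218).

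**Figure D5:**
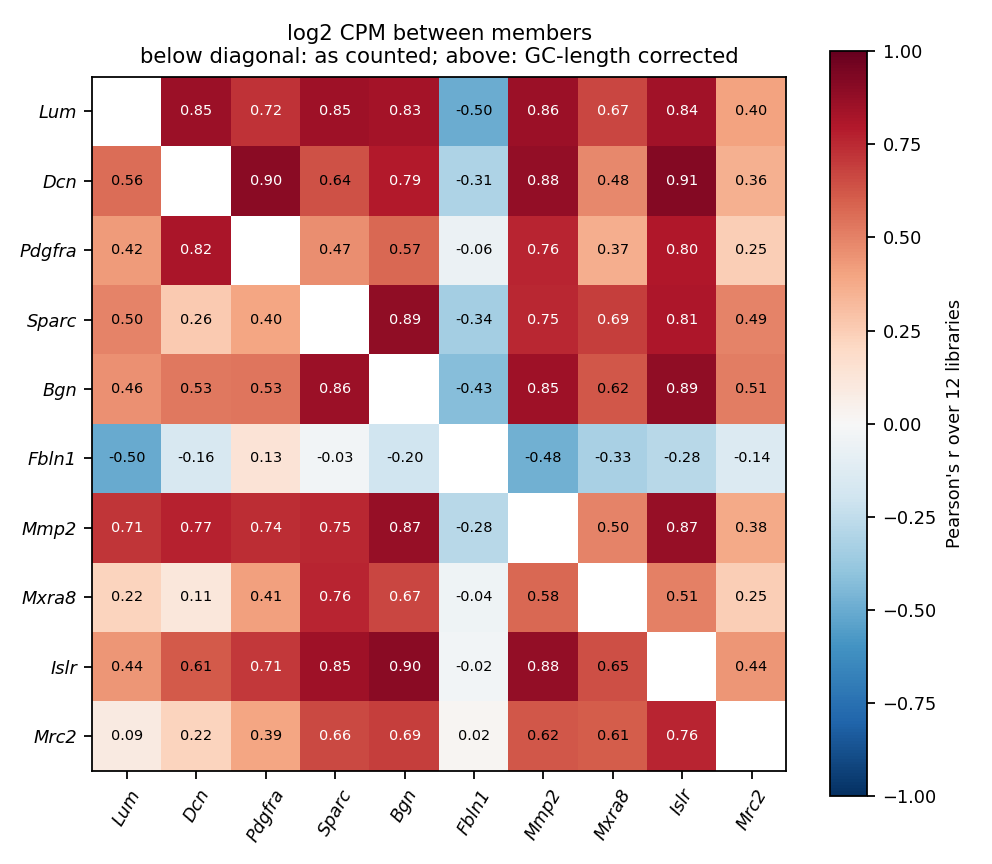
Pearson's r of log2 CPM between the 10 genes over the 12 libraries, with genes in order of exon GC content, for counts as deposited (below the diagonal) and after the GC-length correction (above it). Colour runs from -1 (blue) to 1 (red). Dcn and Islr stand at 0.61 below and 0.91 above the diagonal, and all values below 0 lie in the row and column of Fbln1.

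Among the other genes of these 14797, Prelp was most like the mean log2 CPM of the 10 over the 12 libraries, with r 0.980, and it was also first after the GC-length correction, with r 0.967. Prelp encodes another small leucine-rich proteoglycan, which anchors basement membranes to collagen. The next 9 genes as counted were Pitpnm2, Zmym3, Vamp2, Pdxk, Tns1, Dlc1, Baz2a, Wiz and Cnn2, with r between 0.943 and 0.967, and 9 of the 10 had exon GC content above the median of genes tested. After the correction the next 9 were Cd163 (a scavenger receptor of macrophages), Zfp36l1, Fmnl2, Cnn2, Ahr, Pabpc1, the laminin chains Lama2 and Lamc1, and A430107O13Rik, with r between 0.934 and 0.958, and 3 of the 10 had GC content above the median. The lists share 2 genes, Prelp and Cnn2. Of the 10 genes themselves, Islr lay nearest to their mean (r 0.944), Lum (0.384) and Fbln1 (0.181) farthest, each being part of that mean.

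Other matrix genes were read as lists. Of 8 fibrillar and type VI collagen chains, 7 in TG and 6 in DRG had an unadjusted p under 0.05 higher in females (all genes, 10.9% and 3.84%) and 0 in either ganglion higher in males, with medians of 1.39 and 0.90 on the log2 scale (1.17 and 0.56 after the GC-length correction). After the correction 5 in TG and 2 in DRG had an unadjusted p under 0.05 (all genes, 4.64% and 3.75%). Col6a1, a chain of the microfibrils around cells, had 35.1 ± 10.1 CPM in female and 9.49 ± 7.09 CPM in male TG (SD, n = 3 each), with a log2 fold change of 1.93 (SE 0.53, unadjusted p 0.00387), and 1.46 (SE 0.40, unadjusted p 0.00311) in DRG, and it kept 1.31 and 1.15 after the correction. Its partner chain Col6a2 had 1.86 (SE 0.47) in TG, which became 1.23. Col5a1, which sets the width of fibrils, had 1.35 (SE 0.44) in DRG, which became 0.67 (SE 0.38, unadjusted p 0.101).

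Of 10 further small leucine-rich proteoglycans, 8 were tested in TG and 6 in DRG, and 1 in each ganglion, Prelp, had an unadjusted p under 0.05, higher in females. For this and the lists below, 10.9% of all genes in TG and 3.84% in DRG had one higher in females. After the correction these shares were 4.64% and 3.75%. Prelp had a log2 fold change of 1.74 (SE 0.64) in TG and 1.19 (SE 0.48) in DRG, Epyc 2.36 (SE 1.16) in TG and Podn 1.60 (SE 1.02) in DRG. Corrected, 2 in each ganglion had an unadjusted p under 0.05, Prelp at 1.30 and 1.06 and, in TG, Epyc at 3.30 (SE 1.21) among them. Among 17 tested matrix glycoproteins, 3 in TG and 7 in DRG had an unadjusted p under 0.05, all higher in females (all genes, 10.9% and 3.84%). Smoc2, a calcium-binding relative of Sparc, had 1.33 (SE 0.43) and the elastic-fibre protein Efemp2 had 1.07 (SE 0.43) in TG. In DRG the microfibril protein Fbn1 had 1.34 (SE 0.33) and fibronectin, Fn1, had 1.11 (SE 0.38). Corrected, 3 in TG and 6 in DRG had an unadjusted p under 0.05. Efemp2 in TG fell to 0.49 (unadjusted p 0.218) and Fn1 in DRG to 0.68 (unadjusted p 0.0580), while Smoc2 kept 1.23 and Fbn1 0.93. Of the matrix enzymes and inhibitors, 6 of 16 tested in TG and 2 of 15 in DRG had an unadjusted p under 0.05. All were higher in females (all genes, 10.9% and 3.84%). Loxl2, which cross-links collagen, had 2.20 (SE 0.52) in TG and 1.13 (SE 0.51) in DRG. Its relative Lox had 1.18 (SE 0.47) in DRG, and Bmp1, which trims procollagens, had 1.46 (SE 0.38) in TG. Corrected, 2 in each ganglion had an unadjusted p under 0.05. Loxl2 kept 2.01 in TG and had 0.99 (unadjusted p 0.0668) in DRG, Lox kept 1.24, and Bmp1 in TG fell to 0.72 (unadjusted p 0.0762).

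Of other fibroblast surface and secreted proteins, 4 of 11 tested in TG and 3 of 13 in DRG had an unadjusted p under 0.05, again higher in females, among them Gsn (1.12, SE 0.29) and Igfbp6 (1.28, SE 0.38) in TG and Ly6a (1.26, SE 0.51) and Gsn (0.72, SE 0.29) in DRG. Corrected, 4 and 3 had an unadjusted p under 0.05, with Gsn at 0.56 in TG and 0.57 in DRG, Igfbp6 at 1.05 in TG and Ly6a at 2.17 in DRG. Shares of all genes higher in females were 10.9% in TG and 3.84% in DRG, and corrected 4.64% and 3.75%. For the PDGF ligands and the beta receptor, 2 of 5 in TG and 1 of 5 in DRG had an unadjusted p under 0.05. These were higher in females (all genes, 10.9% and 3.84%). Pdgfb, a ligand, had 1.45 (SE 0.37) in TG and 1.98 (SE 0.63) in DRG, Pdgfrb, the beta receptor, 1.18 (SE 0.30) in TG, and the ligand Pdgfd 1.87 (SE 0.87) in DRG. Corrected, 2 in each ganglion had an unadjusted p under 0.05, but in TG Pdgfb fell to 0.70 (SE 0.29) and Pdgfrb to 0.54 (SE 0.19), under a fold of 2, while in DRG Pdgfb had 1.77 (SE 0.58) and Pdgfd 2.26 (SE 0.95). By edgeR's adjusted p 0 genes of these lists were called between the sexes. Between TG and DRG 1 listed gene was called, the proteoglycan Vcan (log2 fold change -2.28, SE 0.36, adjusted p 0.00193), which is named for being that single call. By edgeR's unadjusted p under 0.05, 4 of 8 collagen chains were lower in TG and 0 higher (corrected, 6 and 0). Of 18 matrix glycoproteins 6 were lower and 2 higher (8 and 2), and of 16 matrix enzymes and inhibitors 3 and 0 (4 and 0). The other matrix lists had 0, and corrected 3 fibroblast surface and secreted genes were lower. Of all genes 8.83% had one in either direction (corrected, 9.92%).

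Markers of other cell classes moved in part along with the 10 genes. In a bulk sample, fewer cells of a type and less RNA per cell cannot be told apart. Summed over the 10 genes, the level was 1798 to 2537 CPM in female and 1389 to 1781 CPM in male DRG, and 1470 to 2141 CPM in female and 1118 to 1787 CPM in male TG. The 9 macrophage markers summed to 249 to 472 CPM in female and 105 to 242 CPM in male TG, and to 151 to 339.6 CPM in female and 124 to 186 CPM in male DRG, with 9 of 9 above 0 on the log2 fold scale in both ganglia. Above 0 were 52.9% of all genes in TG and 51.4% in DRG. The 7 endothelial markers summed to 389 to 622 CPM in female and 318 to 445 CPM in male TG, and to 334 to 645 CPM in female and 198 to 347 CPM in male DRG, where 6 of 7 had an unadjusted p under 0.05, higher in females (all genes, 3.84%). In TG 2 of 7 had one higher in females (all genes, 10.9%). The median log2 fold change of the endothelial markers was 0.23 in TG and 1.09 in DRG (0.12 and 1.08 after the GC-length correction). The 8 mural cell markers summed to 235 to 386 CPM in female and 189 to 277 CPM in male TG, and to 251 to 583 and 195 to 258 CPM in DRG. Among these marker lists the sums overlapped between the sexes, except those of the macrophage markers in TG.

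The 10 sensory neuron markers, each above 1 CPM in the mean of every group, summed to 5804 to 8424 CPM in female and 6643 to 8520.0 CPM in male TG, and to 6451 to 11146 CPM in female and 10109 to 11326 CPM in male DRG. Female TG 1 and 2 (5914 and 5804 CPM) and female DRG 1 and 2 (6451 and 6864 CPM) lay below all males of their ganglion. Female TG 3 and female DRG 3 lay among the males. Of these markers, 5 in TG and 3 in DRG had a log2 fold change above 0 (all genes, 52.9% and 51.4%). Higher in females, 2 in TG and 0 in DRG had an unadjusted p under 0.05 (all genes, 10.9% and 3.84%), and higher in males 2 in each. The sums of the 7 myelinating Schwann cell markers (2002 to 3028 CPM over all libraries) and of the 7 satellite glia markers (1403 to 2861 CPM) overlapped between the sexes in both ganglia, and so did those of the 5 perineurial and meningeal markers (254 to 389 CPM). Of the Schwann cell markers, 5 in TG and 6 in DRG had a log2 fold change above 0 (all genes, 52.9% and 51.4%). Their medians were 0.70 and 0.53 (0.26 and 0.62 after the GC-length correction). An unadjusted p under 0.05 was reached higher in females by 3 in TG and 1 in DRG (all genes, 10.9% and 3.84%). Higher in males it was reached by 1 in TG. Pmp22 in that sum had a mean of 924 CPM in female and 1367 CPM in male TG, and 1109 and 1573 CPM in DRG. Skeletal muscle markers summed to at most 3.64 CPM in any library. Of the 5 red blood cell markers 4 had 0 counts in every library, and the list summed to at most 20.3 CPM. The part of the other cell classes in the sex differences of the 10 genes was not tested.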

How the data were processed

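The authors prepared and sequenced the fractions as stranded, ribosomal RNA-depleted libraries with single reads of 50 bases and aligned them to mm9 with TopHat2. The deposited values are raw read counts per gene from HTSeq-count. The 5 summary lines per file, which are not genes, were left out of library sizes and tests. The line of reads assigned to no gene held 37.6% to 50.4% of these reads and the reads in genes. Tool versions, annotation and strand setting are not given in the sources used here, so reads of overlapping antisense genes may be miscounted.

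Groups and replicate numbers came from sample titles. The 10 genes, all lists and the naming rules were chosen with earlier results of these data known. Named were the 10 genes, up to 2 genes with the smallest p per list and ganglion, and the 10 genes most like their mean. Sexes were compared within each ganglion (6 libraries), and TG against DRG and the interaction in 1 model of 12 libraries, with edgeR 4.0.16 in R 4.3.3 (filterByExpr, TMM, quasi-likelihood F-test, Benjamini-Hochberg over all genes tested). Xist and 4 Y-linked genes were left out of counts over all genes. Mean CPM stood in for RPKM in the criteria. Log2 CPM used a prior count of 2, and correlations 100000 two-sided permutations. Exon lengths, GC contents and sequences came from GENCODE on mm9, matching 95.9% of symbols. The GC-length correction fitted splines with 5 degrees of freedom per library. The fits were tested on simulated data. A floor of 3 counts was 0.208 to 0.356 CPM per library and covers counting error only. Alternatives were DESeq2 1.42.0, other scalings and filters, a replicate block, the GC-length correction, 1 fit of 12 libraries, an RPKM criterion and left-out libraries.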

Additional observations from a re-analysis of the deposited data

How the results depend on the processing

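With 3 libraries per group, calls of single genes depended on which libraries entered. In TG, the number of the 10 genes meeting the criteria of the study was 2 and ran from 2 to 4 when 1 library was left out (4 without female TG 3 and 4 without male TG 3), and it was 7 with the libraries numbered 1 and 2 alone. The number with an adjusted p under 0.05 was 0 in edgeR, 2 with DESeq2, 1 without a filter on low counts (Mrc2, adjusted p 0.0247), 8 with the libraries numbered 1 and 2 alone, and 0 to 5 when 1 library was left out (5 without female TG 3). The shares of all genes passing in these settings were 0%, 6.27%, 0.0233%, 44.1% and 0% to 23.6%. The DESeq2 shares, here and for DRG below, are of the genes with a DESeq2 adjusted p (11488 in TG and 6604 in DRG). The criteria were met higher in females by 5.14% of all genes in TG, and by 2.14% to 9.04% when 1 library was left out. With the libraries numbered 1 and 2 alone 13.1% met them. In DRG, 4 genes met the criteria, 2 to 4 when 1 library was left out (2 without female DRG 1, 2 without female DRG 2), and the number with an adjusted p under 0.05 was 0 in edgeR, 1 with DESeq2 and 5 with the libraries numbered 1 and 2 alone (all genes, 0%, 4.66% and 10%). The criteria were met higher in females by 2.01% of all genes in DRG, and by 1.21% to 4.66% when 1 library was left out. With 15 correlated pairs as counted, 7 passed without the 2 libraries farthest from the median of the first gene of the pair. With library totals only 28 passed, and 0 within DRG libraries and 0 within TG libraries. Of these settings only the pairs as counted were set against all pairs of genes. The causes were not tested, and a ganglion holds 6 libraries.

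Same-numbered libraries were not treated as pairs, since their deviations did not all correlate above 0.1. Of 12 same-number pairs 6 did (range -0.0954 to 0.220), and 7 of 12 libraries correlated best with their own number, which is a hint from the data and not from the design. Between TG and DRG of 1 sex, those numbered 2 and 3 did so in both sexes (0.116 to 0.220), and those numbered 1 did not (0.0288 in females, 0.0414 in males). With the replicate block 2 genes in TG and 3 in DRG met the criteria, Bgn in DRG going to 0.96, and with the block and the GC-length correction 3 and 5. With the block 3.66% of all genes in TG and 1.59% in DRG met them higher in females. With the block and the correction these shares were 1.16% and 1.63%. For TG against DRG the block gave 1 of the 10 genes at an adjusted p under 0.05, Mmp2 (-0.75, adjusted p 0.0305), and 185 genes of the whole table against 114 without it and 206 with DESeq2. The block changed no other count of the 10 genes. Lum in TG changed sign with RLE factors (-0.02), and Fbln1 in DRG with library totals (0.13). Over all genes, 1033 met the criteria in TG, 290 after the GC-length correction, 3491 with the libraries numbered 1 and 2 alone and 580 to 2527 when 1 library was left out. In DRG the numbers were 689, 446, 1769 and 372 to 1580.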
